A study of Homo sapiens with 6 samples.

Results

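Long known exonic circRNAs were the circular RNAs of the deposited table that the authors classed as exonic, that carried a circBase identifier and whose predicted sequence was at least 1000 bases long. They numbered 693 of the 4814 circRNAs listed (14.4%), came from 479 host genes and held 4793 of 26060 junction reads (18.4%). The remaining known exonic circRNAs, called short here, numbered 2901 and held 17424 reads, and 709 exonic circRNAs had no circBase identifier.

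The RNA came from Ishikawa cells, an established human endometrial carcinoma line. There were 3 libraries from cells given MPA and 3 from untreated control cells of the same line, and the question was whether circRNA levels differed between them. The labels gave no dose, duration or culture details, and did not spell out MPA. They do not state whether each library had a culture of its own, so every p-value rests on the variation among these 6 libraries, and that variation may be technical.

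A circRNA forms when the spliceosome joins the end of an exon back to the start of the same or an upstream exon. The resulting closed loop lacks the free ends that exonucleases attack, and it is recognised in sequencing by reads across the back-splice junction. Many such loops begin at the exon after the first one of their host, and some carry the host's start codon. A read across the junction names the ends of the loop but not the exons between them, so a predicted length assumes that the annotated exons in between were all kept.

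The back-splice junctions of 8 circRNAs on which the results below turn are printed here to show what was counted. Each runs 5′ to 3′ over 30 bases, with the last 15 bases of the final exon in lower case and the first 15 bases of the first exon in capitals. They were built from GENCODE 29 transcripts (GRCh38), matched by gene, strand, genomic span and spliced length, with T for U.
NFATC3 hsa_circ_0000711: catcctgttgtgaagATCTTGAGCCAGATG
ARHGAP5 hsa_circ_0031584: ttattgaagatacagGAAGATGATCCCTAT
OMA1 hsa_circ_0002316: agacttatacctcagGTAGTCAAGTGAAAA
ZBTB44 hsa_circ_0002484: agtcttcctctatagGACATTTCTGATTTA
HIPK3 hsa_circ_0000284: atctcggtactacagGTATGGCCTCACAAG
SPECC1 hsa_circ_0000745: agtctgctggccaagGGGCCTTTACAACAA
FAT1 hsa_circ_0001461: taggtgaagagacagATTCCCGACAGTTAA
AGTPBP1 hsa_circ_0001868: gtcagtttaattatgGACTATGATTTAATC
In HIPK3 the host's start codon begins at base 3 of the capitals. In ARHGAP5 the reading frame that opens at the host's start codon runs round the loop and meets a TGA after 5 bases of the capitals. The corresponding TGA lies after 9 bases in OMA1 and after 8 bases in ZBTB44. The capitals of SPECC1 and AGTPBP1 begin at exon 4 and exon 14 of their transcripts, and these loops hold no annotated start codon.

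The long circRNAs had a median predicted length of 1435 bases (quartiles 1152 and 1889, range 1001 to 80829). They spanned a median of 23561 bases of genome, against 7728 for the short known exonic circRNAs. Most were rare: the median was 4 reads in all, 52 were seen in every library, and 271 (39.1%) appeared in a single one. All circRNAs listed, long or short, had at least 2 reads in some library. Those read less than that are absent from these numbers and from the read means and medians below. The 10 most abundant held 18.4% of the reads of the class, and the 10 most abundant short ones held 5.05% of theirs. Since 10 is a larger part of 693 than of 2901, these values do not compare how concentrated the reads were. The circRNAs averaging at least 5 reads per library were 3.32% of the long ones, with 28.4% of the reads. Among the short ones they were 2.24%, with 19.0% of the reads. At the length threshold, the nearest inside were circRNAs of TAF2 (1001 bases, 6 reads), AVL9 (1001 bases, 2 reads) and PSMD1 (1002 bases, 8 reads). The nearest outside came from PTPN9 (999 bases, 2 reads), EEA1 (998 bases, 6 reads) and MPP6 (997 bases, 5 reads).

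Exon structure was described after the values had been seen, from GENCODE 29. A run of exons fitted 641 of the 693 long circRNAs, and their median was 8 exons, against 3 for the short ones. Of these, 52 lay within 1 exon. They made up 8.11% of the matched long circRNAs and held 21.9% of their reads, whereas single-exon circRNAs were 3.91% of the matched short ones with 4.78% of the reads. A back-splice start at exon 2 was found in 36.5% of the long and 29.2% of the short circRNAs. The host's annotated start codon lay inside 144 long circRNAs (22.5%, against 12.4% of the short ones). Median GC content was 42.3% in the long and 43.2% in the short ones.

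Long circRNAs of up to 4 exons had more reads on average than those of 5 or more. The mean over the 6 libraries together was 18.4 reads for the 52 single-exon circRNAs, 10.96 for the 95 with 2 to 4 exons, 5.39 for the 272 with 5 to 9 exons and 4.10 for the 222 with 10 or more. The medians were 6, 6, 3 and 3 reads in the same order. Without its 5 most-read circRNAs the single-exon mean was 9.66. The other classes were not trimmed in this way, so this value does not rank the single-exon class against them. Every junction read crosses 1 junction whatever the length of the loop, so these counts needed no division by length.

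The weight of single-exon circRNAs was larger among long than among short ones. The mean reads of single-exon over multi-exon long circRNAs had a ratio of 2.54, 3.89 and 2.74 in MPA libraries 1 to 3, and of 3.78, 2.69 and 3.52 in control libraries 1 to 3. Among short circRNAs the same ratio lay between 1.11 and 1.42. The long ratio was above the short ratio in 6 of 6 libraries, by 1.96 ± 0.576 (SD, n = 6; exact sign-flip test, two-sided p = 0.0312, the smallest that 6 libraries allow). Without the 5 most-read single-exon circRNAs of each class, the ratios were 1.38 to 1.96 for long and 0.848 to 1.12 for short ones. The difference was then 0.662 ± 0.248 (SD, n = 6; exact sign-flip test, two-sided p = 0.0312), also in 6 of 6 libraries. The same circRNAs enter all 6 libraries, so this compares these sets of circRNAs and not long circRNAs in general. Both tests were added after the data were seen, and the 5 left out were picked from the same counts. In median reads the contrast was smaller, at 6 for single-exon and 3 for multi-exon long circRNAs, and 4 and 3 for short ones. MPA and control libraries overlapped in the long ratio, at 3.06 ± 0.729 with MPA and 3.33 ± 0.568 in control (SD, n = 3 each; exact permutation test, two-sided p = 0.8).

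**Figure D1:**
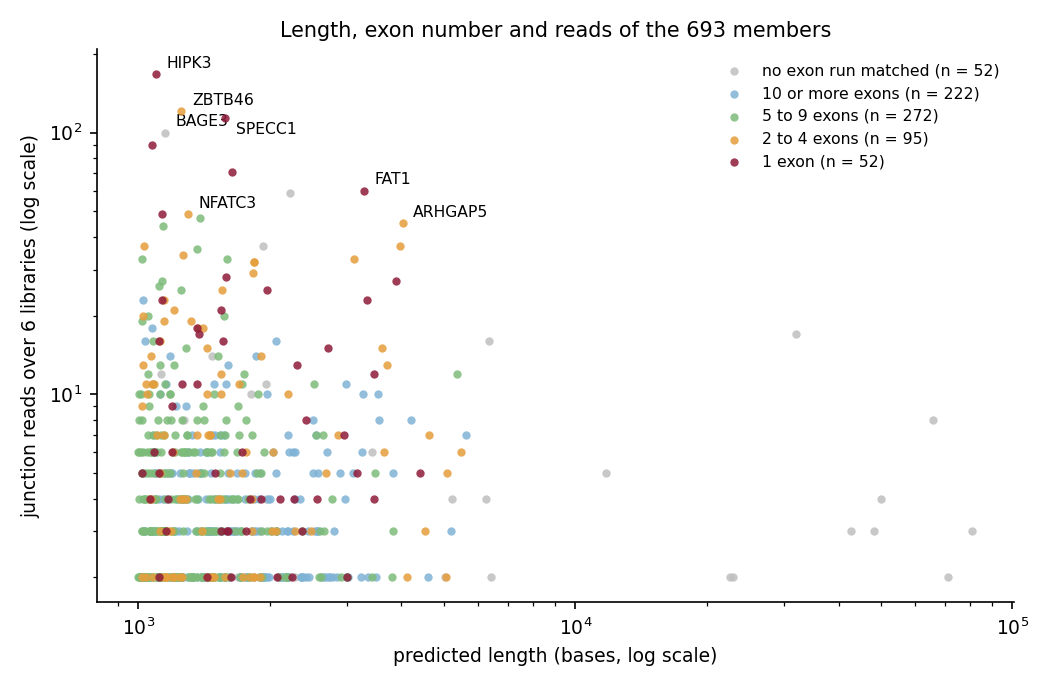
Predicted length in bases (horizontal, log scale) against junction reads over 6 libraries (vertical, log scale) for the 693 long known exonic circRNAs, coloured by the number of exons matched in GENCODE 29. HIPK3 and SPECC1 (1 exon) and ZBTB46 (2 to 4 exons) stand at the top, and all points at lengths above 5620 bases have no matched exon run.

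The longest predicted lengths need care. Of the 21 circRNAs at 5000 bases or longer, 13 had a predicted length equal to their genomic span and no matching exon run, which counts every base between the ends. One of these lay in the unnamed locus G073721 (hsa_circ_0131196, chromosome 6, 158703295 to 158735300 on hg19, 32006 bases), with 0, 6 and 2 reads in MPA libraries and 4, 3 and 2 in control libraries. The longest circRNA with a matched exon run was hsa_circ_0107924 of CEP192, a centrosome scaffold protein (chromosome 18, 12999420 to 13073184), predicted at 5620 bases over 29 exons. It had 4, 0 and 1 reads in MPA libraries and 0, 0 and 2 in control libraries, too few for a comparison.

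A frame that opens at the host's start codon and has no annotated stop within the loop was present in 138 long circRNAs. Read round the loop, it met a stop codon past the junction in 121, at a median of 27 bases, and on the junction itself in 3. In 14 no in-frame stop was found. These are properties of the annotated sequence, and translation was not measured.

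The share of reads taken by long circRNAs overlapped between MPA and control libraries. Out of all known exonic reads they held 20.8%, 23.8% and 21.0% in MPA libraries 1 to 3, and 21.9%, 21.4% and 20.5% in control libraries 1 to 3. MPA library 2 was highest, and the other MPA libraries lay within the control range. Out of all junction reads, the means were 18.6% ± 1.24 with MPA and 18.2% ± 0.565 in control (SD, n = 3 each), a difference of 0.372 percentage points (exact permutation test, two-sided p = 0.8; the smallest p for 3 against 3 is 0.1). The widest 95% Wilson interval of the share in a library ran from 17.2% to 19.6% (control library 2). Such intervals, and the limits that a count of 0 allows, cover counting error only. Among known exonic reads, the means were 21.9% ± 1.64 with MPA and 21.3% ± 0.729 in control (SD, n = 3 each; exact permutation test, two-sided p = 0.8). Without MPA library 2 this difference was -0.37 percentage points, against 0.58 with all libraries. Fewer cells making a circRNA and less of it per cell cannot be told apart in such bulk samples.

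Library totals lay between 3740 and 5454 junction reads, and each MPA total was above each control total. At the smallest total a count of 0 allows a share of up to 0.0802% (3 counts). Long circRNAs had 793, 868 and 981 reads in MPA libraries and 806, 687 and 658 in control libraries. The number of them with a read was 297, 269 and 336 in MPA libraries and 300, 258 and 271 in control libraries, which overlapped. Thinned to 3740 reads per library, the expected number was 277 ± 18.7 with MPA and 271 ± 12.7 in control (SD, n = 3 each; exact permutation test, two-sided p = 0.8). Without thinning, the difference was 24.3 for circRNAs with at least 1 read (exact permutation test, p = 0.5) and 41.3 for those with at least 2 (exact permutation test, p = 0.1, the smallest the design allows), and these numbers were not corrected for the larger MPA totals. Without MPA library 3 the thinned difference was -2.59, and without control library 2 it was -0.40, in place of 5.97. Of the listed markers of other cell types, 0 were hosts of a long circRNA. Since these markers hosted only 1 of all 4814 circRNAs (0.0208%), the 0 does not show whether other cell types were present. Linear RNA, which would show the markers of the line itself, was not analysed here.

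**Figure D2:**
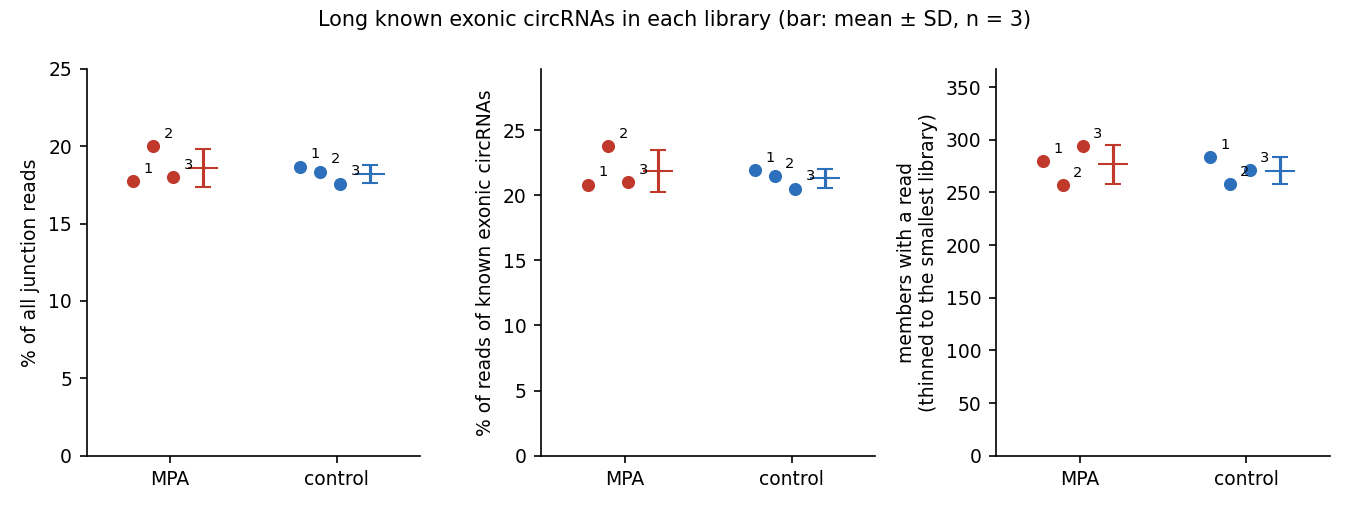
Share of all junction reads, share of the reads of known exonic circRNAs (both in percent) and thinned number of long known exonic circRNAs with a read, 1 point per library labelled with its replicate number, with bars for mean ± SD (n = 3). MPA and control points overlap in each panel, and MPA library 2 is the highest in both shares.

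Within the class, the groups overlapped in every bin of length. The 395 circRNAs of 1000 to under 1500 bases took 57.3% ± 3.69 of the class's reads with MPA and 59.6% ± 1.35 in control (exact permutation test, two-sided p = 0.5). The 148 of 1500 to under 2000 bases took 23.1% ± 3.09 with MPA and 21.6% ± 1.94 in control (exact permutation test, p = 0.5). The 150 of 2000 bases or more took 19.6% ± 0.840 with MPA and 18.8% ± 0.895 in control (exact permutation test, p = 0.2; SD, n = 3 each). Adjusted over the 3 bins, each p was 0.5. circRNAs whose span equals their length took 23.4% ± 4.30 with MPA and 23.6% ± 3.44 in control (SD, n = 3 each; exact permutation test, p = 1). The sign of this last difference turned when MPA library 1 or 3, or control library 1 or 3, was left out.

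Of the 693 long circRNAs, 23 averaged at least 5 reads per library and were tested with edgeR among 91 circRNAs of the whole table. These 23 held 28.4% of the reads of the class; the other 670 were too rarely read for the test. No long circRNA passed an FDR of 0.05 with edgeR (0 of 23; 0% of the 91 passed), and 0 passed with DESeq2. At an unadjusted edgeR p under 0.05 there were 2 of 23, against 2.2% of the 91, those 2 being all such circRNAs. With DESeq2 there was 1 of 23, against 1.1% of the 91. Estimates lay above 0 for 14 of the 23 (52.7% of the 91 did). The median log2 fold change, MPA over control, was 0.20 over the 23, 0.14 over all 91 and -0.00 over the 65 short known exonic ones tested. The unadjusted 95% interval of the fold change left out 4-fold for 21 of the 23 (91.2% of the 91) and 2-fold for 3 (8.79% of the 91), so a 2-fold change was not excluded for most.

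**Figure D3:**
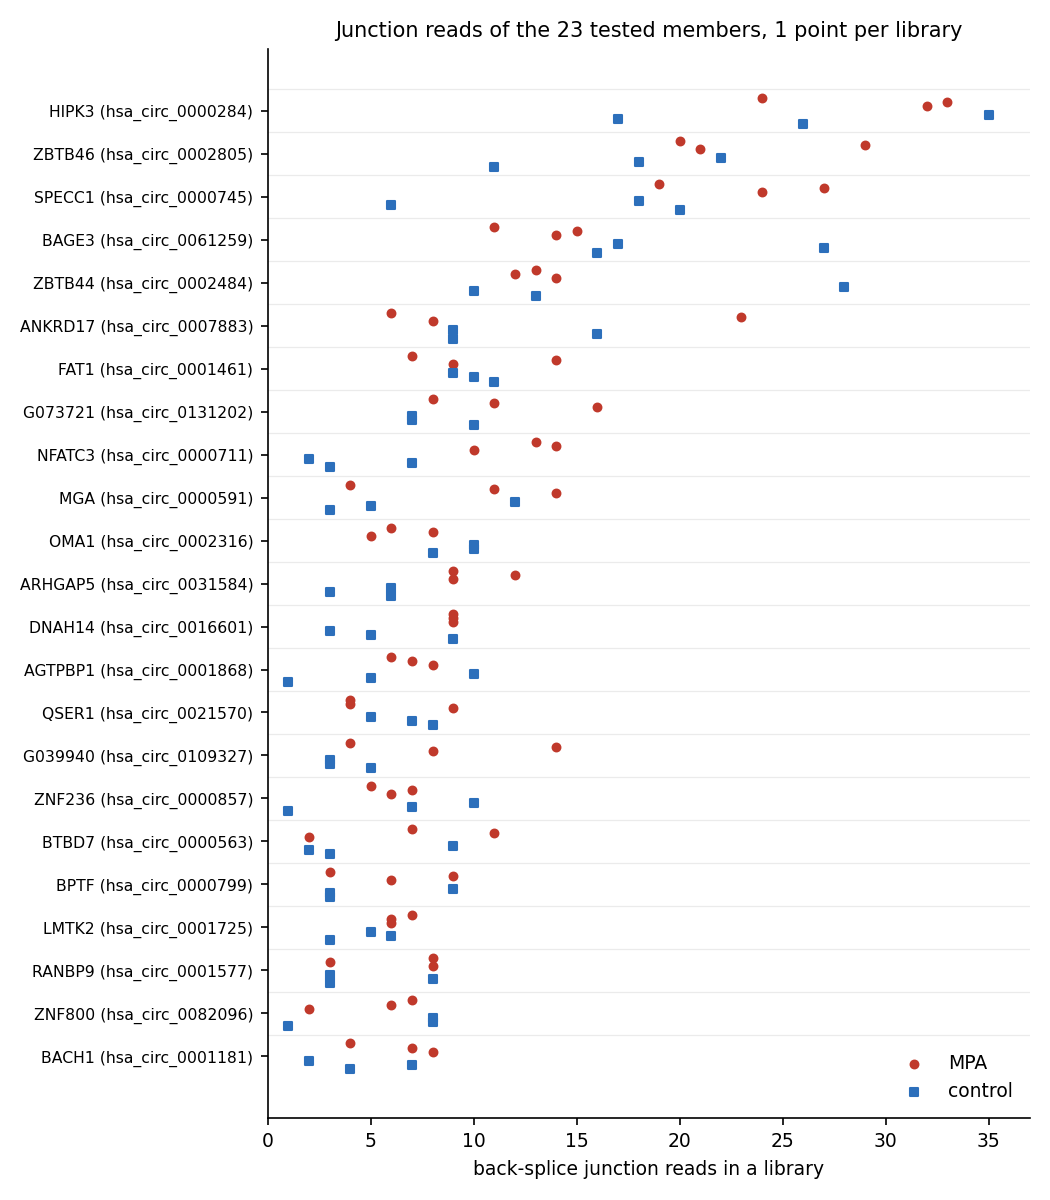
Junction reads in each library (horizontal) of the 23 long known exonic circRNAs that were tested, 1 row per circRNA, ordered by total reads, with MPA libraries as circles above control libraries as squares. The groups overlap in most rows; NFATC3, at 10 to 14 reads with MPA and 2 to 7 in control, is the row with the smallest p.

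Among transcription factor and chromatin hosts, hsa_circ_0000711 had the smallest p. It comes from NFATC3, a calcineurin-dependent NFAT transcription factor (chromosome 16, 68155890 to 68160513, exons 2 to 3, 1298 bases), and had 13, 14 and 10 reads in MPA libraries and 2, 7 and 3 in control libraries. The raw counts did not overlap, but as shares of the library totals MPA library 3 and control library 2 did. Its log2 fold change was 1.37 (SE 0.484, n = 3 each) and did not pass (edgeR, adjusted p = 0.442). With each library left out it ran from 1.08 to 2.09, and it was highest without control library 2 (edgeR, adjusted p = 0.0564). A second long circRNA, hsa_circ_0005615, starts at the same site and holds exon 2 alone (1135 bases). It was picked after its values were seen, at 1, 5 and 2 reads in MPA libraries and 5, 1 and 9 in control libraries. The counts of this shorter loop overlapped between the groups; whether the loops differ in their response was not tested.

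Of the other hosts of this kind, ZBTB46, a BTB zinc finger transcription factor, gave the second most read long circRNA (hsa_circ_0002805, chromosome 20, 62407031 to 62422143, exons 2 to 3, 1255 bases). It had 20, 29 and 21 reads in MPA libraries and 22, 18 and 11 in control libraries (log2 fold change 0.22, SE 0.377; edgeR adjusted p = 0.936). Its relative ZBTB44 (hsa_circ_0002484, chromosome 11, 130130751 to 130131824, exon 2, 1074 bases) had 13, 12 and 14 reads in MPA libraries and 28, 10 and 13 in control libraries. For ZBTB44 the groups overlapped, and the estimate of -0.61 on the log2 scale (SE 0.415; adjusted p = 0.936 in edgeR) was -0.02 without control library 1, whose count was the highest. ZNF236 (18 reads in each group) and ZNF800 had log2 fold changes of -0.24 and -0.40. MGA, a MAX partner with a T-box, had 4, 11 and 14 reads in MPA libraries and 12, 5 and 3 in control libraries, and its estimate of 0.28 was -0.00 without MPA library 3 and -0.12 without control library 3. BACH1, a haem-regulated repressor, and BPTF, a subunit of the NURF remodeller, had log2 fold changes of 0.30 and 0.02.

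Regulators of the cytoskeleton and of adhesion gave 3 tested long circRNAs. hsa_circ_0031584 of ARHGAP5, a GTPase-activating protein (chromosome 14, 32559708 to 32586493, exons 2 to 3, 4030 bases), had 9, 12 and 9 reads in MPA libraries and 6, 3 and 6 in control libraries. It was the 1 long circRNA whose groups did not overlap on the higher side in share of reads, where 3.3% of the 91 did so. Its log2 fold change was 0.76 (SE 0.493, n = 3 each; edgeR adjusted p = 0.936), from 0.56 to 0.94 with each library left out. The exon 2 circRNA of the same gene, hsa_circ_0031583 (3885 bases), also picked after its values were seen, had 5, 2 and 7 reads in MPA libraries and 6, 2 and 5 in control libraries. SPECC1, which encodes a cytospin (hsa_circ_0000745, chromosome 17, 20107646 to 20109225, exon 4, 1580 bases), had 19, 27 and 24 reads in MPA libraries and 18, 6 and 20 in control libraries. Its estimate of 0.44 on the log2 scale (SE 0.387; adjusted p = 0.936 in edgeR) was 0.13 without control library 2, its lowest value with a library left out. The atypical cadherin FAT1 (hsa_circ_0001461, chromosome 4, 187627717 to 187630999, exon 2, 3283 bases) had 7, 14 and 9 reads in MPA libraries and 9, 10 and 11 in control libraries, 30 reads in each group.

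On the lower side, the groups did not overlap in share of reads for 2 of the 23, where 5.49% of the 91 did so. hsa_circ_0061259 of BAGE3, of the B melanoma antigen family (chromosome 21, 11038728 to 11058323, 1152 bases), had 11, 15 and 14 reads in MPA libraries and 17, 27 and 16 in control libraries. Its log2 fold change was -0.82 (SE 0.403, n = 3 each; edgeR adjusted p = 0.936) and -0.48 without control library 2. BAGE genes are near-identical copies, so these reads may come from another copy, and no exon run was matched to print its junction. hsa_circ_0002316 of OMA1, a metalloprotease of the inner mitochondrial membrane (chromosome 1, 58971732 to 59004982, exons 2 to 8, 1381 bases), had 6, 8 and 5 reads in MPA libraries and 10, 10 and 8 in control libraries. Its log2 fold change was -0.78 (SE 0.463, n = 3 each; edgeR adjusted p = 0.936), from -0.95 to -0.57 with each library left out.

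The most abundant long circRNA came from HIPK3, a homeodomain-interacting kinase (hsa_circ_0000284, chromosome 11, 33307959 to 33309057, exon 2, 1099 bases). Its counts of 24, 33 and 32 in MPA libraries and 35, 17 and 26 in control libraries overlapped, and the log2 fold change was -0.04 (SE 0.339; edgeR adjusted p = 0.973). HIPK2, a paralogue, had 0, 2 and 0 reads in MPA libraries and 1, 2 and 1 in control libraries for its own exon 2 circRNA (hsa_circ_0001756, 1084 bases). The membrane kinase LMTK2 had 7, 6 and 6 reads in MPA libraries and 5, 6 and 3 in control libraries.

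The remaining tested hosts were DNAH14 (an axonemal dynein heavy chain), QSER1, RANBP9, ANKRD17 (an ankyrin repeat protein), BTBD7, AGTPBP1 and the unnamed loci G039940 and G073721. DNAH14 had 9 reads in each MPA library and 3, 5 and 9 in control libraries (log2 fold change 0.44, SE 0.497). ANKRD17 had 6, 23 and 8 reads in MPA libraries and 9, 16 and 9 in control libraries, with replicate 2 the highest in both groups. G039940 (chromosome 19, 24014399 to 24016323) had 4, 14 and 8 reads in MPA libraries and 3, 3 and 5 in control libraries, overlapping at the low end. Its log2 fold change of 0.99 (SE 0.661) was 0.49 without MPA library 2, and that of DNAH14 was 0.17 without control library 1. The other 5 had log2 fold changes from -0.47 (QSER1) to 0.30 (G073721), and all 8 had an edgeR adjusted p of 0.936.

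**Figure D4:**
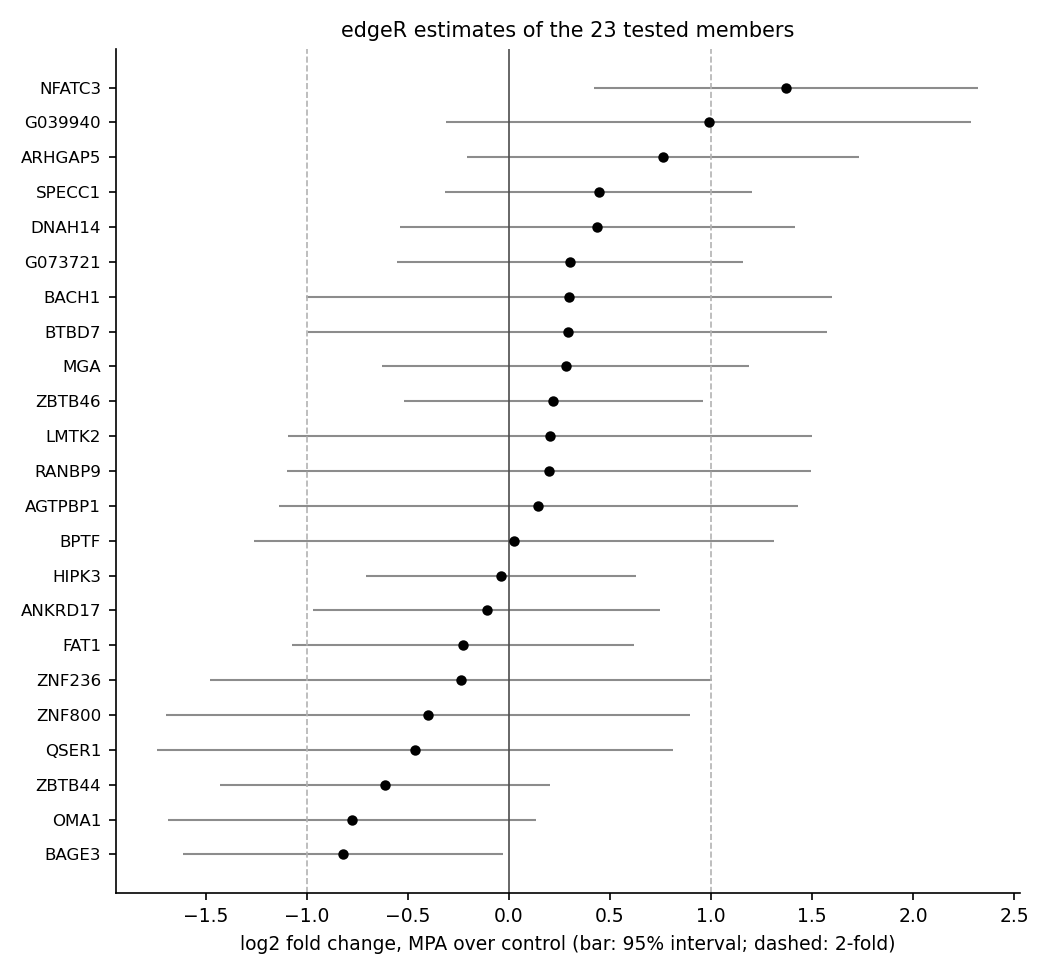
edgeR log2 fold change, MPA over control, of the 23 tested long known exonic circRNAs (points) with 95% intervals not adjusted for the number of tests (bars); dashed lines mark 2-fold. Only the intervals of NFATC3 (1.37) and BAGE3 (-0.82) exclude 0.

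Below the filter, 5 long circRNAs were read in all MPA libraries and in no control library (0.602% of all 4814 listed circRNAs showed this), and 8 in all control libraries and in no MPA library (again 0.602% of those listed). With at least 6 reads in total there were 4. hsa_circ_0065249 of SMARCC1, a core subunit of SWI/SNF (chromosome 3, 47663697 to 47719801), had 3, 2 and 2 reads in MPA libraries and 0 in control libraries. With the control group set at 3 counts, its share of reads was 1.93-fold higher with MPA. This is not a minimum: the lower exact 95% limit of the MPA over control ratio was 1.19. All 4 were picked because 1 group was at 0. hsa_circ_0006866 of KLHL8, an adaptor of a cullin ubiquitin ligase, had 0 reads in MPA libraries and 4, 2 and 1 in control libraries. With the MPA group set at 3 counts, its share was 2.82-fold lower with MPA (upper exact 95% limit of the ratio 0.574). DNA2, a nuclease and helicase of DNA replication, had 0 in MPA libraries and 1, 2 and 3 in control libraries. MED17, a Mediator subunit, had 0 in MPA libraries and 3, 1 and 2 in control libraries. In the same way, DNA2 and MED17 were each 2.42-fold lower with MPA (upper exact 95% limit of the ratio 0.703). The larger SMARCC1 loop that starts at the same exon and ends 1 exon later, hsa_circ_0065244, had 3, 1 and 3 reads in MPA libraries and 3, 0 and 1 in control libraries. A larger KLHL8 loop from the same start as hsa_circ_0006866, hsa_circ_0070389 (exons 2 to 8), was read in both groups. It was picked after its values were seen, at 1, 2 and 3 reads in MPA libraries and 1, 1 and 1 in control libraries.

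By host list, drawn up with earlier results of these data known, 0 circRNAs passed edgeR in either direction in any of the lists. The lists were not complete: MGA and BACH1 were not on the list of chromatin and transcription regulators, nor was LMTK2 on that of kinases. Counts and shares by list therefore cover the listed hosts only. Chromatin and transcription regulators had 47 long circRNAs with 362 reads, 2 of them tested (NFATC3 and BPTF). Their share of the class's reads was 8.08% ± 2.03 with MPA and 7.03% ± 0.578 in control (SD, n = 3 each). Zinc finger hosts had 16 long circRNAs and 332 reads, with 4 tested at log2 fold changes from -0.61 to 0.22; in share they took 6.57% ± 0.926 with MPA and 7.24% ± 2.43 in control. Adhesion, cytoskeleton and small GTPase regulators had 28 with 351 reads, and took 7.41% ± 1.21 with MPA and 7.27% ± 2.52 in control. Kinases had 17 with 287 reads, and took 5.74% ± 0.753 with MPA and 6.28% ± 1.05 in control.

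Further lists had no tested circRNA. Cell cycle, centrosome and DNA repair hosts had 41 long circRNAs and 258 reads, at 5.60% ± 0.615 of the class's reads with MPA and 5.06% ± 0.740 in control. Ubiquitin and protein turnover hosts also had 41, at 4.13% ± 1.52 with MPA and 3.92% ± 0.560 in control. Vesicle trafficking hosts had 22, at 1.71% ± 0.787 with MPA and 2.23% ± 0.398 in control, and RNA processing hosts had 15, at 1.69% ± 0.415 with MPA and 1.32% ± 1.12 in control (SD, n = 3 each throughout). Of the progestin and decidual response list, 1 long circRNA was read, hsa_circ_0001543 of the glucocorticoid receptor gene NR3C1 (chromosome 5, 142779221 to 142780417, exon 2, 1197 bases). It had 1, 1 and 2 reads in MPA libraries and 0, 1 and 1 in control libraries. MPA and control overlapped in every list with a read, and the share tests, added after the data were seen, gave adjusted exact permutation p-values of 1 over the 10 lists.

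Some hosts made many long circRNAs. Of the 479 hosts, 355 had 1 and 12 had 5 or more. A back-splice end was shared with another long circRNA in 255 of the 693 (36.8%), and with a short known one in 250. AGTPBP1, an enzyme that trims glutamates from tubulin tails, had the most with 9, over 4 start and 5 end sites, and its circRNAs had 12, 16 and 16 reads in MPA libraries and 14, 13 and 11 in control libraries in all. The main one joined exon 17 back to exon 14 (hsa_circ_0001868, chromosome 9, 88233898 to 88248289, 1033 bases), with 6, 7 and 8 reads in MPA libraries and 10, 5 and 1 in control libraries. From the same start at exon 14, the loop to exon 18 (hsa_circ_0007162) had 0, 1 and 0 reads in MPA libraries and 3, 2 and 4 in control libraries. The loop to exon 23 (hsa_circ_0087386) had 1, 5 and 2 reads in MPA libraries and 0, 4 and 2 in control libraries. The loop to exon 25 (hsa_circ_0139171) had 1, 1 and 4 reads in MPA libraries and 1, 0 and 0 in control libraries. Picked out by their counts, the exon 18 loop had fewer reads with MPA and the exon 25 loop more, both below the filter of the test. The exact 95% interval of the MPA over control ratio of shares was 0.00210 to 0.663 for the exon 18 loop. For the exon 25 loop it was 0.602 to 228, which includes 1. These intervals cover counting error only, and a shift between the loops was not tested. The other 5 had 2 to 5 reads each.

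**Figure D5:**
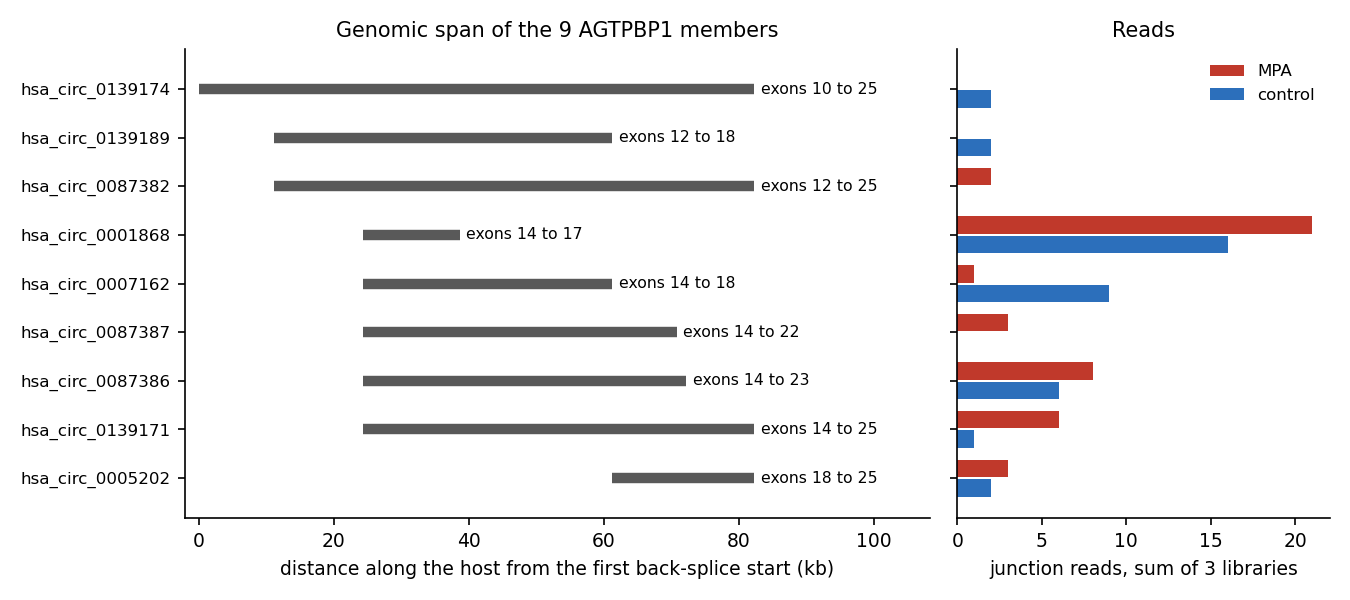
Left, the genomic span of each of the 9 long circRNAs of AGTPBP1, as distance in kb from the most upstream back-splice start, with the exons matched in GENCODE 29; right, junction reads summed over 3 MPA and 3 control libraries. The exon 14 to 17 loop has the most reads in both groups (21 with MPA and 16 in control), the exon 14 to 18 loop has 1 with MPA and 9 in control, and the exon 14 to 25 loop has 6 with MPA and 1 in control.

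BARD1, the partner of BRCA1 in DNA repair, BIRC6, a giant ubiquitin-conjugating inhibitor of apoptosis, and CEP192 followed with 7 each. Summed over its long circRNAs, BARD1 had 6, 8 and 19 reads in MPA libraries and 18, 9 and 10 in control libraries. BIRC6 had 10, 3 and 5 reads in MPA libraries and 2, 8 and 4 in control libraries. CEP192 had 16, 10 and 10 reads in MPA libraries and 10, 8 and 8 in control libraries, the groups meeting at 10. The 7 BARD1 loops combined 3 start and 3 end sites, and each held the same 950-base exon, which was at least 54.4% of the loop. For CEP192, 5 of the 7 loops began at exon 2 with the host's start codon at base 5.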

How the data were processed

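circRNA libraries of Ishikawa cells were grouped by the labels into 3 MPA and 3 control. Per the file headers, the deposited table gives, for each circRNA and library, a raw count of reads across its back-splice junction; 6 further columns of log values of these libraries were not used. CASAVA 1.8, BWA and the build hg19 are named in the submitters' processing notes; the caller and the total sequencing depth are not given in the sources used. Class, host, circBase identifier, hg19 coordinates and predicted length are the authors' annotation. The whole table was fitted in edgeR 4.0.16 (R 4.3.3; TMM, robust quasi-likelihood, group term) over circRNAs averaging at least 5 reads per library, with Benjamini-Hochberg adjustment. DESeq2 1.42.0 was the other count test. Standard errors and intervals of the fold changes were derived from the p of the edgeR test. Shares per library were compared by exact permutation with scipy 1.17.1 (Python 3.11.15, pandas 2.3.3, numpy 2.4.6; figures with matplotlib 3.10.9).

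No hg19 genome was used: exon runs came from GENCODE 29 on GRCh38 where gene, chromosome, strand, genomic span and spliced length were all met, with no conversion of coordinates, and where several transcripts fitted, 1 was taken for its codons. Of the 693, 50 had no such run and 2 had more than 1 sequence. The 479 host names matched RefSeq symbols or synonyms in 464 cases.

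The members, host lists and tests were chosen with earlier results of these data known. Named were all tested members, the 5 with the smallest p in each direction, the 5 longest and the 5 with the largest span with at least 6 reads, those read in all libraries of 1 group only, those of the hosts with most members (7 tied), up to 3 per list, 3 on each side of the length threshold, and a few circBase identifiers; those that repeat a pattern already shown were left without values. Exon structure, reading frames, single-exon ratios (with 2 sign-flip tests) and list shares were added after the data were seen. No library was a copy of another in its group (chi-square tests of their counts, highest p = 0.00581), and each was counted as 1 replicate. Across the groups the highest p was 0.0602 (chi-square test, MPA library 3 against control library 3). These tests do not show whether the libraries came from separate cultures. The alternatives were other filters, scalings, length thresholds, a replicate block and leaving out each library.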

Additional observations from a re-analysis of the deposited data

How the results depend on the processing

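With each library left out in turn, edgeR called 0 long circRNAs, and 0 to 1 of all 91; the 1, seen without control library 2, was not a long known exonic circRNA. Every other filter, scaling and test also called 0 of the long ones. Differences, MPA minus control, ranged over the left-out libraries from -0.34 to 0.79 percentage points for the share of junction reads, -0.37 to 1.102 for the share of known exonic reads and -0.33 to 0.92 for that of exonic reads, each below 0 without MPA library 2 only. The ranges were -2.60 to 1.55 points for circRNAs whose span equals their length, and -3.50 to -0.10, -0.38 to 2.51 and 0.46 to 1.32 for the 3 length bins from short to long; the thinned number ranged from -2.59 to 15.98, and unthinned from 2 reads up the difference was 41.3 in place of 5.97. Among the 23 tested, log2 fold changes turned in sign with a library left out, over the ranges -0.12 to 1.04 for MGA, -0.95 to 0.027 for ZNF800, -0.071 to 0.48 for ZBTB46, -0.0050 to 0.88 for BACH1, -0.24 to 1.19 for BTBD7, -0.79 to 0.36 for ZNF236, -0.10 to 0.48 for LMTK2, -0.11 to 0.89 for RANBP9, -0.89 to 0.28 for ANKRD17, -0.39 to 0.99 for AGTPBP1, -0.22 to 0.27 for HIPK3 and -0.36 to 0.78 for BPTF. The sign stayed but the value moved by over 1.5 times in the ranges 0.13 to 0.67 for SPECC1, 0.17 to 0.85 for DNAH14, 0.49 to 1.29 for G039940, 0.090 to 0.46 for G073721, -0.87 to -0.24 for QSER1, -0.52 to -0.079 for FAT1, -0.83 to -0.018 for ZBTB44, -1.03 to -0.48 for BAGE3 and 1.08 to 2.09 for NFATC3. Otherwise HIPK3 was 0.026 with a mean of at least 2 reads and 0.031 with no filter, and BPTF was -0.012 with DESeq2 size factors and -0.011 in DESeq2; the cause was not tested. Whether the replicate numbers pair the libraries was not settled. Correlations of same-numbered deviations over 91 circRNAs were -0.07, 0.16 and 0.33 for numbers 1 to 3. Those of different numbers ran from -0.29 to 0.11, and MPA library 1 was closest to control library 2. With the number as a block, 0 circRNAs passed, 3 had an unadjusted p under 0.05 in place of 2, and the share difference stayed at 0.372 points (exact sign-flip p = 0.75). At 3740 to 5454 junction reads per library, 670 of the 693 circRNAs averaged under 5 reads and were not tested.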
